A study of Mus musculus with 6 samples.

Results

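The enzymes that build glycogen and break it down were examined in mouse testes at embryonic day E12.5. They comprised 9 genes, chosen by symbol from the 24470 genes of the count table. Gys1, Gys2, Gbe1 and Ugp2 are on the side of synthesis, and Pygl, Pygb and Pygm on the side of breakdown. The phosphoglucomutase genes Pgm1 and Pgm2 complete the list. All 9 were found, and 8 of them, all but Gys2, passed the filter on low counts. RNA sequencing was performed on gonads labelled as whole testes, of 3 control samples (Ppp1r3c f/f) and 3 cKO samples (Sf1-Cre Ppp1r3c f/f). All embryos therefore carried floxed Ppp1r3c alleles, and only the cKO (conditional knockout) embryos carried the Cre transgene, which is driven by Nr5a1 (Sf1) sequences and acts in Sertoli cell progenitors and other Nr5a1-positive cells, on a C57BL/6 background. Every library was made from 2 pooled gonad pairs of whole tissue, so that cells in which the Cre does not act contributed to all of them. Libraries held between 16139487 and 44145158 counts, and the shallowest was control replicate 1.

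Glycogen is a branched polymer of glucose. Phosphoglucomutase converts glucose 6-phosphate to glucose 1-phosphate, UDP-glucose pyrophosphorylase turns this into UDP-glucose, glycogen synthase adds the glucose to a growing chain, and the branching enzyme introduces the branch points. Glycogen phosphorylase releases glucose 1-phosphate from the chain ends. Ppp1r3c encodes a scaffold that brings protein phosphatase 1 to glycogen, where it dephosphorylates synthase, which is thereby activated, and phosphorylase, which is thereby inactivated. Both steps act on the proteins, whereas the measurements here are of mRNA.

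Levels are given as CPM per kb, that is CPM (library counts scaled to a fixed total, with TMM, trimmed mean of M-values, factors) divided by the exonic length of the gene, so that different genes can be compared. The deleted gene was examined first. Ppp1r3c (chromosome 19) was at 24.4, 22.1 and 22.9 CPM in control replicates 1 to 3 and at 4.71, 5.37 and 5.96 CPM in cKO replicates 1 to 3. The groups did not overlap, and the log2 fold change was -2.11 (FDR 0.000126 by edgeR, SE 0.111). Ppp1r3c was thus low in every library labelled cKO.

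Testis identity was examined with marker genes. All 8 Sertoli cell markers had counts in all samples and summed to between 1456 and 1968 CPM. cKO replicate 3 stood apart: Xist, the RNA of the inactive X chromosome in XX cells, was at 379 CPM there and between 0.369 and 1.0 CPM in each of the other 5 samples. The 6 pre-granulosa markers summed to 268 CPM in that sample, with Foxl2 at 7.56 CPM and Fst at 50.9 CPM, against 82.8 to 100.2 CPM in the others, and the Y-linked genes summed to 219.8 CPM against 257.8 to 277.1 CPM. Germ cell markers summed to 397 to 644 CPM in control and 179 to 403 CPM in cKO samples, and in whole tissue fewer cells of a type and less RNA per cell cannot be told apart. The pool of cKO replicate 3 may therefore hold XX tissue, which the labels do not address. The part of these differences in the results below was not tested. Many of the group differences described below, but not all, are given without cKO replicate 3 as well.

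None of the 8 tested enzymes was called as changed. edgeR called 0 of them at an FDR (false discovery rate) below 0.05 over all 15577 tested genes, of which 0.0385% were called. DESeq2 also called 0, against 0.779% of all genes to which it gave an adjusted p. At an unadjusted edgeR p below 0.05 there were 2 of 8, Gbe1 and Pygb, both higher in cKO samples, where 11.4% of all tested genes passed and 5.56% passed with a higher level in cKO. The groups did not overlap for 4 of 8, Gbe1, Pygb, Pgm1 and Gys1, again all higher in cKO. Among all tested genes the groups did not overlap for 15.6%, and 8.42% did so with cKO higher. The median log2 fold change of the 8 enzymes was 0.081, against -0.0034 for all tested genes. A positive value was found for 7 of 8 enzymes and for 49.1% of all tested genes, but those of Ugp2 (0.014) and Pygl (0.0046) were close to 0. Without cKO replicate 3 the median of the enzymes was 0.060, and Gbe1 (unadjusted p 0.0432 by edgeR) but not Pygb (0.124) remained below an unadjusted p of 0.05. In that setting Ugp2 (-0.00026) and Pygl (-0.080) were negative, and Pygm (0.029) was positive.

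Which isoforms these testes expressed was asked next, since synthase and phosphorylase are each encoded by paralogs named for the tissue in which they prevail. The opening coding bases of these paralogs are shown because counts can be assigned to an isoform only where the sequences differ. Each run holds the first 60 coding bases, starting at the ATG in exon 1, 5′ to 3′ on the coding strand, from GENCODE M21 transcripts of build GRCm38 (mm10). Capitals mark bases at which the paralogs of the family are not all identical, which was the case at 28 of 60 positions for synthase and 26 of 60 for phosphorylase. The phosphorylase stretch encodes the N-terminal tail with the serine that phosphorylase kinase modifies.
Gys1, chr7:45435053-45435112, plus strand: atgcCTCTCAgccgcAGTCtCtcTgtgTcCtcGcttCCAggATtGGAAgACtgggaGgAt
Gys2, chr6:142472742-142472801, minus strand: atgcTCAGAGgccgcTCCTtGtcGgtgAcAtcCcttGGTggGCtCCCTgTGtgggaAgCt
Pygl, chr12:70227524-70227583, minus strand: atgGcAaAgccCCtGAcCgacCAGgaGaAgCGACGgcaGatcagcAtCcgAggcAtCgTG
Pygb, chr2:150786868-150786927, plus strand: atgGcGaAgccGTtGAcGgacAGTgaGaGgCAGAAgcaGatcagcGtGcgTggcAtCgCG
Pygm, chr19:6384479-6384538, plus strand: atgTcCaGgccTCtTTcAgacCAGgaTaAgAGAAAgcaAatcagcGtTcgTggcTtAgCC

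Over the whole coding sequence the nucleotide identity was 69.4% between Gys1 and Gys2, 75.6% between Pygl and Pygb, 75.3% between Pygl and Pygm, and 77.4% between Pygb and Pygm. The longest run shared by both transcripts was 29 bases for the first 3 of these pairs and 62 bases for Pygb and Pygm. Pgm1 and Pgm2 are more distant, with 58.2% identity over the aligned bases and a longest shared run of 10 bases. No stretch of 100 bases from the transcript of any of the 9 enzymes occurred in the same orientation in an annotated transcript of another gene. In the opposite orientation Gys1 shared 191 such stretches with Ruvbl2 and Pgm1 shared 299 with Itgb3bp, and the counting used strand. Reads shorter than these stretches, or placed by mismatch, were not examined.

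Glycogen synthase mRNA was almost all Gys1. Gys1 encodes the form that prevails in muscle and most other tissues, and Gys2 the liver form. Gys1 (chr7:45434839-45456617, 16 exons) had 1292, 3333 and 3171 counts in the control replicates and 3346, 2986 and 2847 counts in the cKO replicates. Gys2 (chr6:142422613-142473109, 17 exons) had 0, 3 and 1 counts in the control and 0 in each cKO replicate. In the shallowest library, control replicate 1, the count of 0 allows a Gys2 share of synthase counts of up to 0.232% (3 counts), and in the 3 cKO replicates it allows up to 0.0897%, 0.100% and 0.105%. Against the same limit Gys1 was at least 311-fold higher than Gys2 per kb in control replicate 1, and at least 806-fold, 719-fold and 686-fold higher in cKO replicates 1 to 3. In control replicate 2, with 3 counts of Gys2, the ratio per kb was 803 (95% interval 274 to 3890, exact Clopper-Pearson), and in control replicate 3, with 1 count, its lower bound was 411. The exact Clopper-Pearson 95% upper bounds of the share were higher than the limits from 3 counts. They were 0.285% in control replicate 1 and 0.11%, 0.123% and 0.129% in cKO replicates 1 to 3. The fold limits from 3 counts are therefore not as strict as the exact bounds of control replicates 2 and 3. All these limits cover counting error only. Whether Gys2 differed between the groups was not detectable at this depth. Gys2 failed the filter on low counts and was not tested.

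All 3 phosphorylases were detected, and the brain form Pygb was the most abundant. Pygb (chr2:150786796-150831748, 20 exons) made up 62.9%, 65.9% and 64.1% of the summed phosphorylase level per kb in control replicates 1 to 3, and 66.9%, 66.1% and 68.3% in cKO replicates 1 to 3. The liver form Pygl (chr12:70190815-70227683, 20 exons) took 18.3% ± 0.377 (SD, n = 3) in control and 16.9% ± 0.733 (SD, n = 3) in cKO samples. The muscle form Pygm (chr19:6384408-6398464, 20 exons) took 17.4% ± 1.17 and 16.0% ± 1.83 (SD, n = 3 each). Every cKO sample thus had a larger Pygb share than every control sample, by 2.78 percentage points in the mean, although cKO replicate 2 lay only just above control replicate 2. The Pygl share was lower in every cKO sample, while the Pygm shares overlapped. The exact two-sided permutation p was 0.1 for Pygb and for Pygl, the smallest that 3 against 3 samples allow (0.225 after Benjamini-Hochberg adjustment over 9 shares and ratios compared), and 0.4 for Pygm.

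The shares depended on the length used, most of all for Pygl. As shares of counts, the measure planned for a table without lengths, Pygb took 71.2% ± 1.34 in control and 73.65% ± 0.993 in cKO samples. These groups did not overlap (exact permutation p 0.1). Pygl took 14.6% ± 0.361 and 13.4% ± 0.542 of the counts, and Pygm 14.2% ± 1.015 and 12.9% ± 1.51 (SD, n = 3 each). With exonic lengths over all GENCODE transcripts, an alternative added after the data were seen, Pygl took 9.96% ± 0.215 in control and 9.14% ± 0.449 in cKO samples (SD, n = 3 each), and Pygm 20.6% ± 1.40 and 18.9% ± 2.04 (SD, n = 3 each), so that no order between these isoforms is read from the shares. Pygb remained the most abundant on that scale, at 69.4% ± 1.58 and 72.0% ± 1.61 (SD, n = 3 each). Its difference of 2.58 percentage points was of similar size, but the groups overlapped (exact permutation p 0.2). The exact permutation p was also 0.2 with libraries thinned to the smallest total (2.59 percentage points). Without cKO replicate 3 the difference was 2.19 percentage points for Pygb and -1.72 for Pygl.

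**Figure D1:**
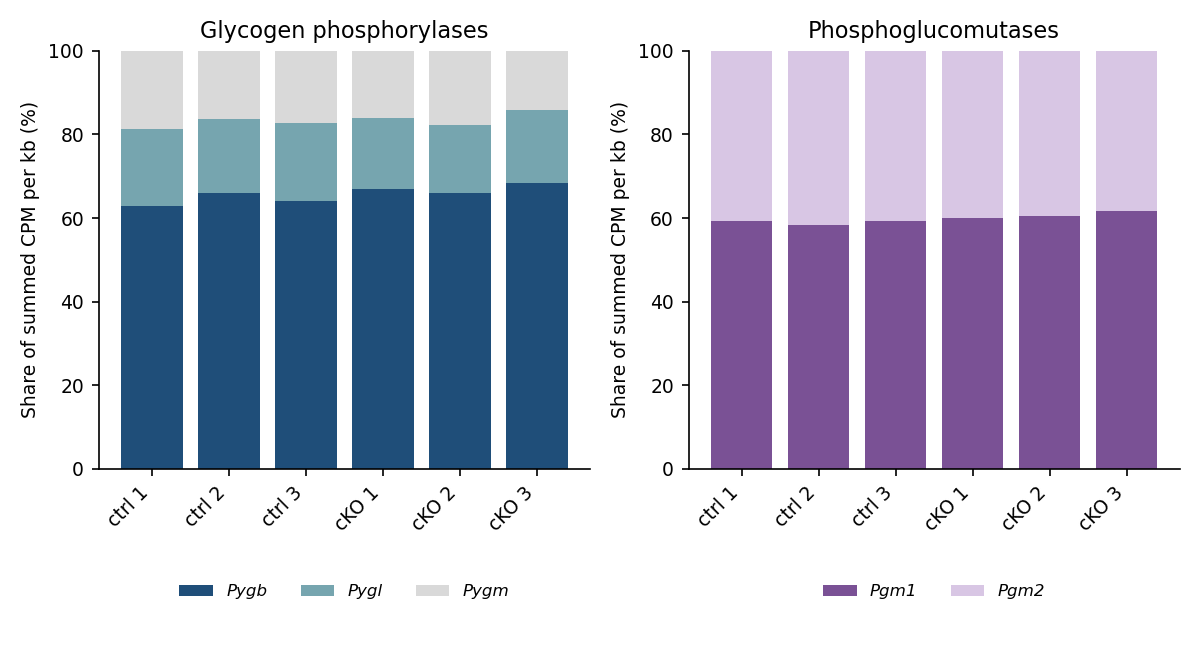
Left, stacked bars of the share of Pygb, Pygl and Pygm in their summed CPM per kb (percent, vertical axis) in each of the 6 samples; right, the same for Pgm1 and Pgm2. Pygb takes between 62.9% and 68.3% and Pgm1 between 58.4% and 61.8%.

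The presence of Pygm and Pygl was compared with markers of the tissues for which they are named. The 5 skeletal muscle markers (Ckm, Acta1, Myog, Myod1 and Myh3) summed to between 1.03 and 1.88 CPM in a sample, while Pygm alone was at 32.2 to 38.5 CPM. The 5 liver markers (Alb, Afp, Ttr, Apoa1 and Fgb) summed to between 0.634 and 2.59 CPM, while Pygl was at 34.1 to 40.7 CPM. In plain CPM, not divided by length, each isoform was thus above the summed markers of the tissue it is named for in every library. Whether muscle or liver tissue contributed to either isoform was not tested.

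Per unit of length the enzymes fell into a graded order, with Pygb and Ugp2 at the top and Gbe1 and Gys2 at the bottom in both groups. Pygb and Ugp2 were the most abundant, at 45.1 ± 1.96 and 41.7 ± 2.13 CPM per kb in control samples (SD, n = 3 each), a level above that of 89.3% and 88.1% of tested genes with a known length. Their ranges over the 6 samples overlapped. Gys1 followed at 21.1 ± 0.559 and Pgm1 at 17.5 ± 0.559 CPM per kb (SD, n = 3 each), with Gys1 above Pgm1 in 6 of 6 samples and separate ranges within each group, though the highest cKO value of Pgm1 passed the lowest control value of Gys1. Pygl, Pgm2 and Pygm formed a group at 12.9 ± 0.640, 12.2 ± 0.521 and 12.2 ± 0.865 CPM per kb (SD, n = 3 each) that could not be ordered within its spread. With lengths over all GENCODE transcripts, which are 6895 bases for Pygl in place of 2825, Pygl lay lower, at 5.26 ± 0.262, against 11.2 ± 0.476 for Pgm2 and 10.9 ± 0.773 for Pygm (CPM per kb in control, SD, n = 3 each), so that its place in the order rests on the length. Gbe1 was at 5.62 ± 0.356 CPM per kb (SD, n = 3), below the range of every enzyme but Gys2. The range of Gys1 lay below that of Ugp2, that of Pygl below that of Pgm1, and that of Gbe1 below that of Pygm, so that these 3 steps exceeded the spread between all 6 samples at the lengths used.

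**Figure D2:**
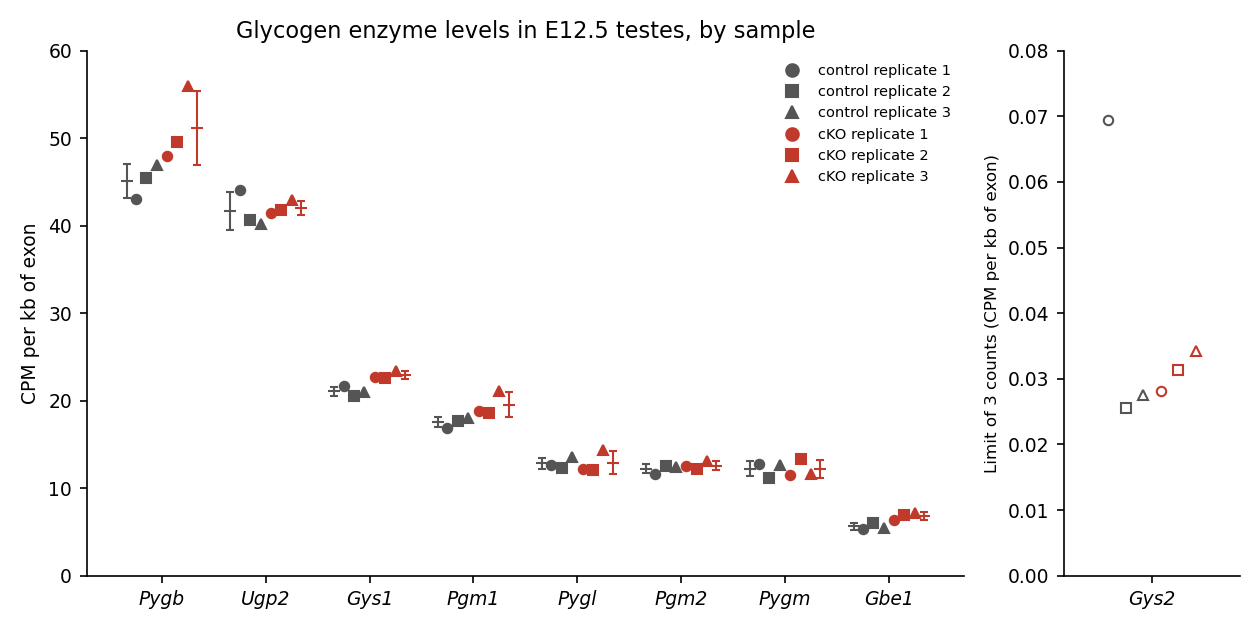
Level of each enzyme in CPM per kb of exon (vertical axis from 0) for 3 control (grey) and 3 cKO (red) samples, with mean ± SD of each group beside the points; the right panel gives, on its own axis, the level that 3 counts of Gys2 would have in each library. Pygb and Ugp2 are the most abundant, Gbe1 is the lowest of the tested enzymes, and the limit for Gys2 is 0.0695 CPM per kb or less.

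Pgm1, Pgm2 and Ugp2 were described first. Pgm1, the main phosphoglucomutase, was at 16.9, 17.7 and 18.0 CPM per kb in control and at 18.8, 18.7 and 21.2 CPM per kb in cKO replicates 1 to 3. All cKO samples lay above all control samples, and cKO replicate 3 was the highest. The log2 fold change was 0.15 (FDR 0.450 by edgeR, SE 0.0707), and without cKO replicate 3 it was 0.092 (FDR 0.781 by edgeR, SE 0.0745). Pgm1 of the table lies at chr4:99929451-99987294 (11 exons) and Pgm2 at chr5:64092950-64128161 (14 exons). The RefSeq gene table of this build lists each of these symbols as an older name of the other gene, so that older annotations exchange them.

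Pgm2, whose protein acts chiefly on pentose phosphates, was at 11.6, 12.6 and 12.4 CPM per kb in control and at 12.51, 12.2 and 13.1 CPM per kb in cKO samples. Its groups overlapped (log2 fold change 0.040, SE 0.0678, edgeR FDR 0.859). Accordingly Pgm1 took 59.0% ± 0.511 of the summed Pgm1 and Pgm2 level in control and 60.8% ± 0.895 in cKO samples (SD, n = 3 each), with no overlap (exact permutation p 0.1, 0.225 after Benjamini-Hochberg adjustment over 9 comparisons). The difference was 1.82 percentage points, and 1.33 without cKO replicate 3. As a share of counts the difference was also 1.82 percentage points (exact permutation p 0.1).

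Ugp2, which makes UDP-glucose (chr11:21321126-21371267, 10 exons), was at 44.1, 40.7 and 40.2 CPM per kb in control and 41.4, 41.8 and 42.9 CPM per kb in cKO samples. The cKO samples lay inside the range of the controls. The log2 fold change was 0.014 (FDR 0.941 by edgeR, SE 0.0552), with a 95% interval from a decrease of 7.31% to an increase of 10.1%. Its span also holds Mir1933 on the same strand and overlaps Vps54 on the other strand.

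On the side of chain synthesis, Gys1 was at 21.6, 20.5 and 21.04 CPM per kb in control and at 22.7, 22.6 and 23.4 CPM per kb in cKO samples. The cKO samples all exceeded the controls by a small margin. The log2 fold change was 0.12 (FDR 0.443 by edgeR, SE 0.0550), a difference of 8.79% with a 95% interval from -0.148% to 18.5%. Without cKO replicate 3 the log2 fold change was 0.11 (FDR 0.714 by edgeR, SE 0.0653). The ratio of Ugp2 to Gys1 was lower in every cKO sample than in every control sample. This ratio was not a planned comparison, and it contains the Gys1 values given above. It was 1.98 ± 0.0646 in control and 1.84 ± 0.0134 in cKO samples (SD, n = 3 each, exact permutation p 0.1, Benjamini-Hochberg adjusted p 0.225). The difference was -0.142, and -0.140 without cKO replicate 3.

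Gbe1, the glycogen branching enzyme (chr16:70313949-70569720, 16 exons), had the largest difference of the 8 tested enzymes. It was at 5.34, 6.02 and 5.50 CPM per kb in control and at 6.36, 6.99 and 7.18 CPM per kb in cKO replicates 1 to 3. The highest control sample lay below the lowest cKO sample. The log2 fold change was 0.28 (edgeR FDR 0.377 and unadjusted p 0.0102, with an SE of 0.0870), a difference of 21.3% with a 95% interval from 5.95% to 39.0%. This interval is not adjusted for the number of genes tested. DESeq2 gave a log2 fold change of 0.28 (DESeq2 FDR 0.257), and edgeR gave 0.24 (SE 0.104, FDR 0.633) without cKO replicate 3.

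On the side of breakdown, Pygb was at 43.0, 45.4 and 46.9 CPM per kb in control and at 48.0, 49.6 and 56.0 CPM per kb in cKO samples. The groups were separate, and cKO replicate 3, the sample with Xist and raised pre-granulosa markers, was the highest. The log2 fold change was 0.18 (edgeR FDR 0.389 and unadjusted p 0.0251, with an SE of 0.0677), a difference of 13.3% with a 95% interval from 1.96% to 25.9%. Without cKO replicate 3 it was 0.11 (edgeR FDR 0.704 and unadjusted p 0.124, with an SE of 0.0654).

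Pygl was at 12.7, 12.3 and 13.6 CPM per kb in control and at 12.2, 12.1 and 14.4 CPM per kb in cKO samples. cKO replicates 1 and 2 were the lowest of all samples and cKO replicate 3 the highest. The log2 fold change was accordingly 0.0046 (FDR 0.988 by edgeR, SE 0.0832), and -0.080 (FDR 0.837 by edgeR, SE 0.0818) without cKO replicate 3. Pygm was at 12.7, 11.2 and 12.7 CPM per kb in control and 11.5, 13.4 and 11.7 CPM per kb in cKO samples. Its log2 fold change was -0.0019 (FDR 0.996 by edgeR, SE 0.0839). The groups overlapped, although cKO replicate 2 was the highest of all samples. The 95% interval ran from -11.9% to 14.2% for Pygl and from -12.4% to 13.8% for Pygm, so that larger differences lay outside it while smaller ones could not be detected.

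The balance of both sides was compared within samples, a measure that does not depend on library scaling. The log2 ratio of the summed synthase and branching enzyme level (Gys1, Gys2 and Gbe1) to the summed phosphorylase level per kb was -1.34, -1.38 and -1.46 in control and -1.30, -1.34 and -1.42 in cKO samples. The groups overlapped, and the means of -1.39 ± 0.0621 and -1.36 ± 0.0613 (SD, n = 3 each) did not differ beyond the spread (exact permutation p 0.6). From counts not divided by length the means were -1.39 and -1.37, again with overlap (exact permutation p 0.7). The ratio of Pygb to Gys1 likewise overlapped, at 2.14 ± 0.135 in control and 2.23 ± 0.143 in cKO samples (SD, n = 3 each, exact permutation p 0.6). The ratio of Gys1 to Gbe1 was 3.76 ± 0.326 in control and 3.35 ± 0.186 in cKO samples (SD, n = 3 each, exact permutation p 0.2). Without cKO replicate 3 the cKO means of these 3 ratios were -1.32, 2.15 and 3.40, in the order given.

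How the enzymes varied together was examined per sample. On the log2 CPM scale, the median deviation of the 8 tested enzymes from their control means was -0.035, -0.011 and 0.033 in control replicates 1 to 3 and 0.062, 0.095 and 0.16 in cKO replicates 1 to 3. Of the 8 enzymes, 5, 6 and 7 lay above the control mean in the 3 cKO samples. cKO replicate 3, the sample with Xist and raised pre-granulosa markers, held the highest value of 6 of the 8 enzymes, and control replicate 1 the lowest value of 4. The same counts were not made over all tested genes, so no joint rise of the enzymes is read from them.

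**Figure D3:**
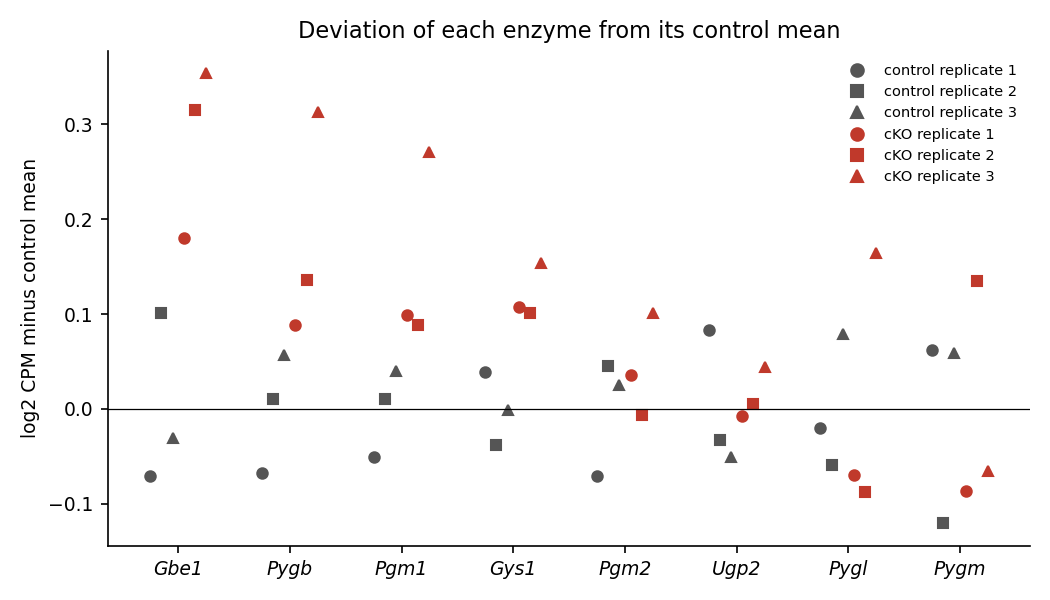
Deviation of log2 CPM from the control mean (vertical axis) for the 8 tested enzymes, 1 point per sample, control in grey and cKO in red. The cKO points of Gbe1, Pygb, Pgm1 and Gys1 all lie above the control points, and cKO replicate 3 (red triangle) is the highest sample for 6 of the 8 enzymes.

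The remaining glycogen genes gave a background for the enzymes. Of 23 listed genes, 22 were in the table and tested (1 was the alternative symbol Gyg1 of Gyg), and edgeR called 0 of them. DESeq2 also called 0, but it gave no adjusted p to some, among them Phkg1, the gene of lowest edgeR p. The median log2 fold change of the 22 genes was 0.022, with 14 positive and 8 negative values. At an unadjusted edgeR p below 0.05 there were 3 higher and 1 lower in cKO samples, where 11.4% of all tested genes passed. The groups did not overlap for 4 of 22, with 2 higher and 2 lower, where this held for 15.6% of all tested genes.

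Gyg, which encodes the glycogenin primer on which chains start, was at 26.7, 38.0 and 27.8 CPM in control and at 37.3, 39.6 and 38.4 CPM in cKO samples. Control replicate 2 lay within the cKO range, and the log2 fold change was 0.31 (FDR 0.404 by edgeR, SE 0.122). Without cKO replicate 3 it was 0.31 (FDR 0.648 by edgeR, SE 0.141). Leaving out control replicate 2, the control that overlapped the cKO samples, DESeq2 called Gyg (log2 fold change 0.49, DESeq2 FDR 0.000966). Without that sample edgeR called 0 genes of this list. The other DESeq2 runs without 1 sample that gave Gyg an FDR did not call it (DESeq2 FDR 0.290 to 0.781). Gsk3b, a kinase that phosphorylates glycogen synthase, had a log2 fold change of 0.14 (FDR 0.439 by edgeR, SE 0.0630) with overlapping groups, and 0.11 (FDR 0.730 by edgeR, SE 0.0731) without cKO replicate 3.

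Phosphorylase kinase, which activates phosphorylase, also has tissue isoforms. The catalytic subunit of the muscle form, Phkg1, was near the lower limit of the tested genes, at 0.739, 1.11 and 0.708 CPM in control and 0.549, 0.389 and 0.333 CPM in cKO samples, from 11 to 49 counts. It had the lowest p of this list, with a log2 fold change of -1.02 (FDR 0.377 by edgeR, SE 0.342), and the groups did not overlap. Without cKO replicate 3 the value was -0.88 (FDR 0.638 by edgeR, SE 0.392). The other catalytic subunit, Phkg2, was at 23.9 ± 2.07 CPM in control and 23.0 ± 1.17 CPM in cKO samples (SD, n = 3 each), with a log2 fold change of -0.048 (FDR 0.863 by edgeR, SE 0.0845). The regulatory subunits Phka1, Phka2 and Phkb had log2 fold changes of 0.045, 0.024 and -0.017, with an edgeR FDR of 0.838, 0.913 and 0.934.

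**Figure D4:**
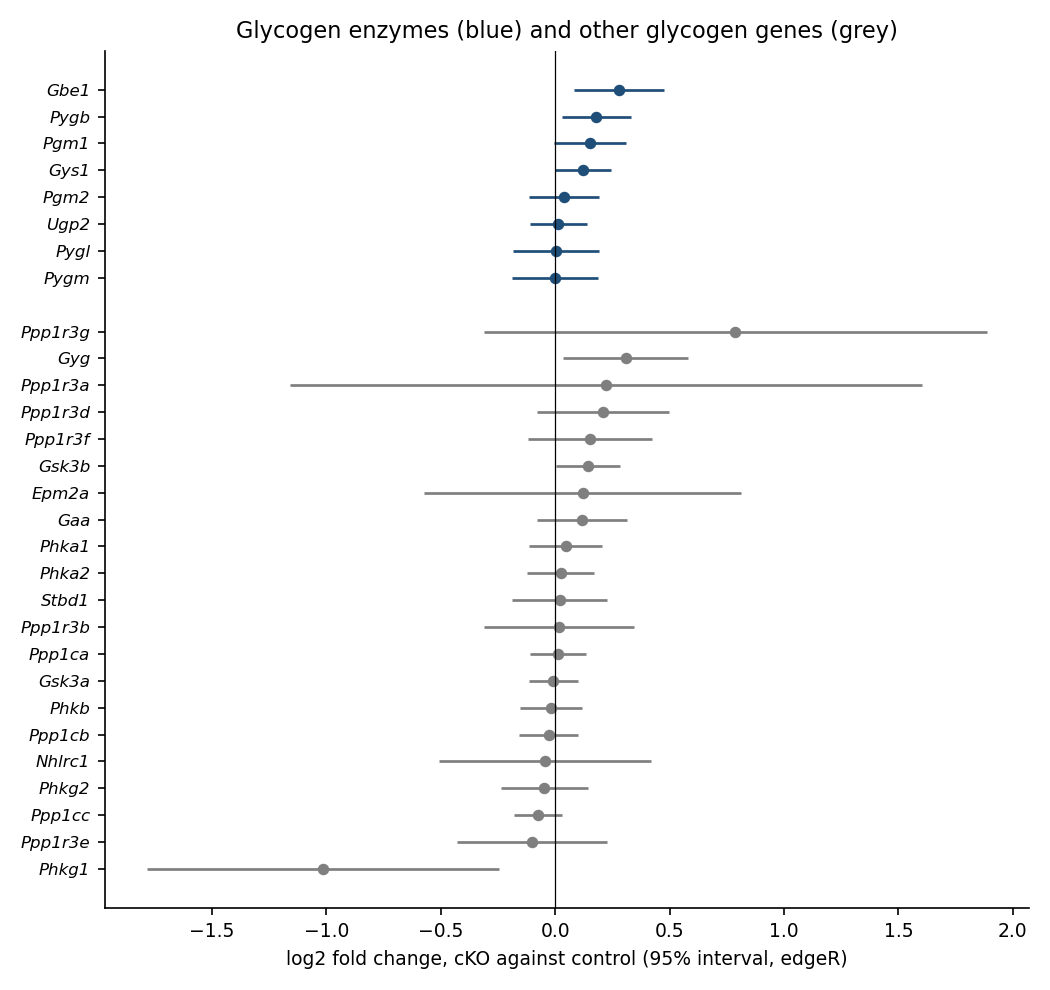
Log2 fold change of cKO against control with its unadjusted 95% interval from edgeR (horizontal axis) for the 8 tested enzymes (blue) and for other glycogen genes of the list, leaving out 1 (grey), ordered by value within each set. The intervals of Gbe1, Pygb, Gyg and Gsk3b lie above 0 and that of Phkg1 below 0, whereas no gene shown passed an FDR of 0.05.

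Genes that make or use the same sugar phosphates or nucleotide sugars were examined last. Of 20 listed genes, 19 were in the table and 17 were tested (Hkdc1 and G6pc were too low), with a median log2 fold change of 0.089. edgeR called 0 of them, with 2 higher and 1 lower at an unadjusted p below 0.05 (11.4% of all tested genes), and DESeq2 called 2 (0.779% of all genes with an adjusted p). The groups did not overlap for 6 of 17, with 5 higher and 1 lower, where this held for 15.6% of all tested genes. G6pc2, a glucose-6-phosphatase catalytic subunit known from pancreatic islets, was at 1.17, 2.06 and 1.90 CPM in control and at 3.62, 3.87 and 8.35 CPM in cKO samples. Its log2 fold change was 1.57 (FDR 0.377 by edgeR and 0.00219 by DESeq2, with an SE of 0.350). cKO replicate 3 was far above the other samples, and without it DESeq2 no longer called the gene (log2 fold change 1.09, DESeq2 FDR 0.174).

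Ugt8a, which uses UDP-galactose to make galactosylceramide and is thus not an enzyme of glucose phosphates, was at 3.94, 4.66 and 4.69 CPM in control and at 2.57, 1.28 and 2.36 CPM in cKO samples. The groups were separate, with a log2 fold change of -1.10 (FDR 0.377 by edgeR and 0.0167 by DESeq2, with an SE of 0.254). DESeq2 did not call it without control replicate 2 (log2 fold change -1.07, DESeq2 FDR 0.306), cKO replicate 2 (-0.85, FDR 0.0928) or cKO replicate 3 (-1.20, FDR 0.0986), although the fold stayed of similar size.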

How the data were processed

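The authors prepared stranded mRNA libraries (TruSeq), aligned read pairs to mm10 with STAR (2.5), and counted them per curated RefSeq gene with featureCounts (Subread 1.5.0-p1), using strand. The deposited values were raw counts with no normalization, in 24470 rows, and 0 columns of per-sample values were left unused. Groups and replicate numbers came from the sample titles. The titles do not say whether embryos of different samples shared a litter, so p-values measure the spread between these samples.

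edgeR (4.0.16, R 4.3.3) was fitted on the whole table with filterByExpr (minimum count 10), TMM scaling and its quasi-likelihood test for the group term, cKO over control, with Benjamini-Hochberg adjustment over 15577 genes. SE and 95% intervals came from the F statistic. A prior count of 2 was added for log2 CPM. DESeq2 (1.42.0), which the authors used, and limma-voom (limma 3.58.1) were alternatives, as were RLE size factors, other filters on low counts, thinned libraries, the replicate number as a block, and each sample left out.

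The table holds no gene lengths, so per-length levels used the exons of GENCODE M21 transcripts matched to curated RefSeq entries (86.9% of genes), in place of the shares of counts planned for that case, with all GENCODE transcripts as an alternative chosen after seeing the data. Shares and ratios were compared with exact two-sided permutation tests, which cannot give a p below 0.1 here. The Pygl and Pygm shares and the ratios of Pygb to Gys1, Ugp2 to Gys1 and Gys1 to Gbe1 were not planned comparisons. The text names the 9 enzymes, Ppp1r3c, genes of the other lists that were called by edgeR or DESeq2 or had the lowest p of their list, Xist, Foxl2 and Fst, and, chosen after their values were seen, Gyg, Gsk3b, Phkg2, Phka1, Phka2 and Phkb. The members and lists were chosen with earlier results of these data known. The values of 1 gene of the glycogen list are not reported here.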

Additional observations from a re-analysis of the deposited data

How the results depend on the processing

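No glycogen enzyme was called in any edgeR or limma-voom alternative, nor by DESeq2 on all samples or in any DESeq2 run without 1 sample that gave it an adjusted p. Over all genes edgeR called 6, DESeq2 111, and edgeR with the replicate block 3. Around the group means, control and cKO samples of one number gave correlations of -0.203, -0.266 and -0.130. Samples of unlike number were not compared in this way, so these values cannot tell whether samples were paired by number. With the replicate block 0 enzymes were called (Gbe1 log2 fold change 0.28, edgeR FDR 0.777). DESeq2 called 2 genes of the sugar phosphate list, where edgeR called 0. Values near 0 changed sign. Pygl was -0.0037 with limma-voom, and Pygm was 0.0057 there, 0.00063 under RLE scaling, 0.0017 by DESeq2, 0.0014 unfiltered and 7.7e-05 where 3 samples had to reach 1 CPM. The cause was not tested. Without single samples, Ugp2 ranged from -0.017 to 0.056, Pygl from -0.080 to 0.050 and Pygm from -0.076 to 0.040, so no direction is read from them. Gbe1 (0.24 to 0.33), Pygb (0.11 to 0.23), Pgm1 (0.092 to 0.18) and Gys1 (0.093 to 0.14) stayed positive in those runs. With libraries thinned to the smallest total Gbe1 was 0.41 and Pgm1 0.10 (edgeR FDR 0.386 and 0.711), and the exact permutation p rose from 0.1 to 0.2 for the Pygb share and to 0.3 for the Pgm1 share. The Pygb share difference ranged from 2.08 to 3.57 percentage points and that of Pgm1 from 1.33 to 2.20. The smallest count of a tested enzyme was 259, for Gbe1 in control replicate 1.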
